A study of Elaeis guineensis with 2 samples.

Results

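Chromosome sites that were enriched with an antibody against EgAGL9 and that lay 1000 to 10000 bp from the nearest other such site are described here. They were found by position alone, as peaks on assembled chromosomes whose summit was at least 1000 bp and less than 10000 bp from the closest other summit on the same chromosome. The rule gave 289 peaks, called clustered peaks below, out of 1711 on chromosomes (16.9%, exact 95% interval 15.1 to 18.8%) and 7919 in the whole list. They are set beside 1318 isolated chromosome peaks, with the nearest summit at 10000 bp or more, and 104 close peaks, with the nearest summit under 1000 bp. Chromatin immunoprecipitation with sequencing was done on fruit of Elaeis guineensis, the African oil palm, cultivar label Jacq. Both libraries came from EgAGL9-overexpressing fruit, 1 immunoprecipitated with the EgAGL9 antibody and 1 input made with no antibody. The promoter that drove the overexpression, the fruit's age and the part of the fruit are not given in the sources used here. Neither fruit without overexpression nor an immunoprecipitate with a control antibody was analysed here, so binding of the factor and unspecific enrichment cannot be told apart. With 1 library a group, no peak has a replicate check, and the peaks of 1 list are not replicates, so no test and no p-value is given. Intervals cover counting error only and treat peaks as independent, which neighbours need not be.

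AGL9 is the older name of SEPALLATA3 in Arabidopsis, a MADS-domain transcription factor that takes part in specifying floral organs. MADS-domain proteins bind short A/T-rich elements known as CArG boxes as dimers. SEPALLATA proteins also join other MADS-domain dimers into larger complexes, which can hold a pair of CArG boxes and loop the DNA between them, and relatives of these factors act in the ripening of fleshy fruit such as tomato. Sites of such a factor are therefore of interest in groups as well as singly. No gene positions or base sequences on the sequence version of the list were used here, so peaks were placed against no gene and searched for no CArG box.

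Under the distances that the rule used, clustered peaks came mostly in pairs. Chains were formed by joining chromosome summits under 10000 bp apart, and the 289 peaks fell into 141 chains, 117 of 2 peaks, 21 of 3 and 3 of 4. Of these chains, 131 held clustered peaks and no others, and the other 10 also took in 20 close peaks. For 262 of the 289 peaks, the nearest summit had that same peak as its own nearest, and for 278 the nearest summit belonged to another clustered peak. These counts follow in part from the rule, under which the nearest summit of a clustered peak can only be a clustered or a close peak.

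The distance to the nearest summit had a median of 4177 bp, its quartiles were 2000 and 6097 bp, and it ran from 1001 to 9806 bp. Between the facing edges of the intervals, the smallest distance was 382 bp, so no clustered peak touched its neighbour. The chromosome list held 158 neighbouring pairs of summits 1000 to 10000 bp apart. They were most frequent at 1000 to 2000 bp, with 38 pairs, and 15 followed at 2000 to 3000 bp. From 3000 to 7000 bp there were 80 pairs, at 18 to 22 per 1000 bp, and 9, 13 and 3 in the last 3 bins before 10000 bp. The mean over 1000 to 10000 bp was 17.6 pairs per 1000 bp, against 5.10 from 10000 to 20000 bp and 3.70 from 20000 to 30000 bp. Every bin from 1000 to 7000 bp thus held 15 or more pairs, and every bin from there to 30000 bp held fewer.

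**Figure D1:**
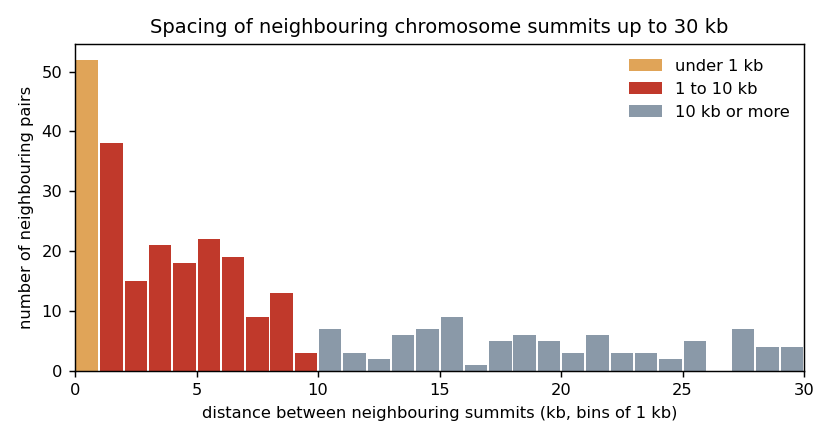
Number of neighbouring pairs of chromosome summits (vertical axis) by the distance between them in kb (horizontal axis, bins of 1 kb, up to 30 kb). Orange marks pairs under 1 kb, red pairs at 1 to 10 kb and grey pairs farther apart; bins from 3 to 7 kb hold 18 to 22 pairs each, and those from 10 to 20 kb average 5.10.

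At the lower limit, the clustered peaks nearest to 1000 bp were peaks1069, peaks1132 and peaks399, at 1001, 1002 and 1036 bp and with folds of 3.53, 2.81 and 2.33. Just outside it lay peaks296 and peaks297, both at 991 bp with folds of 1.98 and 3.64, and peaks1446 at 972 bp with a fold of 4.47. At the upper limit, peaks8 and peaks9 were 9806 bp apart with folds of 2.40 and 2.17, and peaks1586 lay 9566 bp from its neighbour with a fold of 3.71. Just beyond it, peaks1688 and peaks1689 were 10024 bp apart with folds of 2.08 and 3.53, and peaks651 lay at 10485 bp with a fold of 3.85. Folds of the same range thus stood on both sides of each limit.

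Enrichment at clustered peaks was modest. Fold enrichment here is the authors' deposited ratio of the pileup of immunoprecipitated fragments over the summit to the pileup expected from the input. Its median was 2.73 over the 289 clustered peaks (rank-based 95% interval 2.61 to 2.85), and 90% of the peaks lay between 1.86 and 4.13, within extremes of 1.46 and 6.30. Isolated peaks had a median of 2.77 (2.71 to 2.84), an interval that overlaps the first. Folds of 4 or more were found at 23 clustered peaks (7.96%, exact interval 5.11 to 11.7%), at 135 isolated peaks (10.2%, 8.66 to 12.01%) and at 8.26% of the whole list. Folds of 5 or more were found at 6 (2.08%, 0.766 to 4.46%), at 24 isolated peaks (1.82%, 1.17 to 2.70%) and at 1.70% of the whole list. The clustered and isolated intervals overlap at both limits, and the clustered shares were near those of the list.

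The deposited −log10 q, the authors' measure of how improbable a summit's pileup was given the input, had a median of 7.73 at clustered peaks (6.85 to 8.78) and 5.76 at isolated peaks (5.24 to 6.24). These intervals do not overlap, but the median of the whole list, 6.79 (6.56 to 6.96), has an interval that overlaps that of clustered peaks. A −log10 q of at least 5 was held by 186 clustered peaks (64.4%, 58.5 to 69.9%) and by 730 isolated peaks (55.4%, 52.7 to 58.1%). The share was 76.9% (67.6 to 84.6%) at close peaks and 61.5% in the whole list, which lies inside the interval of clustered peaks. At a −log10 q of at least 20 the order was not kept, with 42 clustered peaks (14.5%, 10.7 to 19.1%) and 200 isolated peaks (15.2%, 13.3 to 17.2%). The whole list stood at 17.8%. Clustered peaks had a median width of 288 bp (267 to 303), from 191 to 1034 bp, and isolated peaks 268 bp (262 to 274). A width of at least 500 bp was found in 29 clustered peaks (10.03%, 6.82 to 14.1%) and 83 isolated peaks (6.30%, 5.05 to 7.75%), with overlapping intervals. That width was found in 7.69% of close peaks and 6.72% of the whole list.

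Clustered and isolated peaks differed in their input more than in their fold. The expected pileup is given below in multiples of its lowest value in the list, 2.36 fragments per base, taken as the genome-wide level. This level depends on settings of the peak call that are not given. The median expected pileup was 7.67 times that level at clustered peaks (6.69 to 9.64) and 7.28 times at isolated peaks (6.49 to 8.06). The groups differed at the low end, where 38 clustered peaks (13.1%, 9.48 to 17.6%) lay at no more than 2 times the level, against 306 isolated peaks (23.2%, 21.0 to 25.6%). Between 2 and 10 times were 127 clustered (43.9%, 38.1 to 49.9%) and 453 isolated peaks (34.4%, 31.8 to 37.0%), and over 10 times were 124 (42.9%, 37.1 to 48.8%) and 559 (42.4%, 39.7 to 45.1%). Against isolated peaks, clustered peaks were thus less often at low input and more often at middle input, with intervals that do not overlap, and the shares at high input were alike. Low input was found at 5.77% of close peaks (2.15 to 12.1%) and at 16.8% of the whole list, which lies inside the interval of clustered peaks. Middle input was found at 34.6% of close peaks and 35.2% of the whole list. High input was found at 59.6% of close peaks and 48.0% of the whole list.

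Among clustered peaks, the share of low input was lower at shorter distance. At most 2 times the level was found at 3 of 72 clustered peaks with the nearest summit under 2000 bp away (4.17%, 0.868 to 11.7%). The count was 11 of 100 at 2000 to 5000 bp (11.0%, 5.62 to 18.8%) and 24 of 117 at 5000 to 10000 bp (20.5%, 13.6 to 29.0%). Isolated peaks had 46 of 247 at 10000 to 50000 bp (18.6%, 14.0 to 24.0%) and 260 of 1071 beyond (24.3%, 21.7 to 27.0%). The order did not go on outside the clustered peaks: the 5000 to 10000 bp class stood above the next class, with overlapping intervals, and the close peaks stood above the 1000 to 2000 bp class. The peak caller takes the largest of several windows as the expected pileup. A window of 10000 bp centred on a summit reaches 5000 bp to each side, so it can take in a neighbouring summit only under that distance. The part of such windows in these shares was not tested.

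At like input, clustered and isolated peaks had similar folds. At no more than 2 times the level, the median fold was 3.59 (3.29 to 3.87) in 38 clustered and 3.64 (3.58 to 3.74) in 306 isolated peaks. Between 2 and 10 times it was 3.01 (2.80 to 3.13) against 2.87 (2.81 to 2.94), and over 10 times 2.34 (2.26 to 2.42) against 2.32 (2.28 to 2.37). The median −log10 q in the same 3 classes was 2.995, 5.87 and 15.2 at clustered peaks, and 2.994, 4.53 and 14.2 at isolated peaks. All of these intervals overlap class by class, also that of 5.87 (4.37 to 6.95) with 4.53 (4.23 to 4.86). Within both groups, folds were lower where the input was higher, with a Spearman rho of -0.65 over the clustered and -0.72 over the isolated peaks, but fold is divided by the expected pileup, and a site of low input must have a higher fold to be called.

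**Figure D2:**
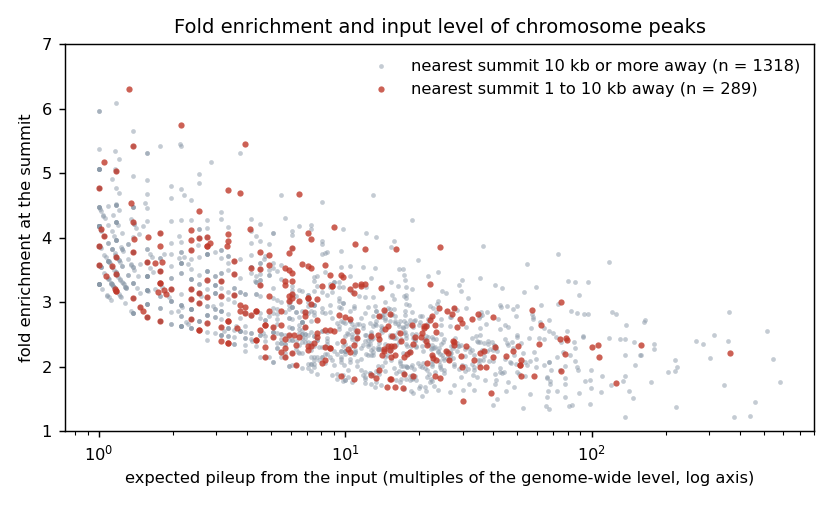
Fold enrichment at the summit (vertical axis) against the expected pileup from the input in multiples of the genome-wide level (horizontal log axis) for 289 clustered (red) and 1318 isolated (grey) chromosome peaks. Each point is a peak; the red points lie within the cloud of grey ones, with medians of 3.59 and 3.64 at no more than 2 times the level and 2.34 and 2.32 at over 10 times.

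Neighbours within 10 kb resembled each other in input. Over the 158 neighbouring pairs at 1000 to 10000 bp, the expected pileups of both peaks had a Spearman rho of 0.36 (0.21 to 0.49). The immunoprecipitate pileups had a rho of 0.34. For fold, −log10 q and width the rho was 0.26 (0.11 to 0.40), 0.23 and 0.24. Over 152 chromosome pairs at 10000 to 50000 bp it was 0.014 for expected pileup and -0.045 for fold, and over the 1333 pairs farther apart -0.0076 and -0.0053. The peaks of a pair share their libraries and their stretch of the chromosome, and neighbouring pairs of a chain share a peak, so these values are descriptions. The caller's settings are not given, and the part of wide windows that take in both peaks was not tested. At 133 of the 158 pairs, both expected pileups lay near whole multiples of 0.463, the step that a window of fragment size would give. There the rho was 0.35 for expected pileup and 0.26 for fold.

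Over all pairs, the rho of expected pileup was lower at each longer distance, but not over the pairs near whole multiples. No interval was computed for these classes of 32 to 66 pairs, so neither order was tested against counting error. The rho of expected pileup was 0.62 over 52 pairs under 1000 bp, 0.46 over 38 pairs at 1000 to 2000 bp, 0.39 over 54 pairs at 2000 to 5000 bp and 0.33 over 66 pairs at 5000 to 10000 bp. With both expected pileups near whole multiples, these were 0.55 over 44, 0.45 over 32, 0.49 over 47 and 0.26 over 54 pairs. For fold over all pairs they were 0.38, 0.33, 0.17 and 0.36. The expected pileups of a pair differed by a median of 2.02 times at 1000 to 10000 bp and of 3.77 times at 10000 to 50000 bp. They were within 2 times of each other in 79 of 158 pairs and in 34 of 152 (22.4%).

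Scaffold peaks, which the rule did not use, gave a like picture for input under 5000 bp, and a lower rho at 5000 to 10000 bp. Over 523 scaffold pairs at 1000 to 10000 bp, the rho of expected pileup was 0.39 and that of fold 0.16. Over 545 scaffold pairs at 10000 to 50000 bp they were 0.029 and -0.050. By distance, the rho of expected pileup on scaffolds was 0.73 over 233 pairs under 1000 bp and 0.56 over 186 pairs at 1000 to 2000 bp. It was 0.50 over 189 pairs at 2000 to 5000 bp. At 5000 to 10000 bp it was 0.084 over 148 scaffold pairs, against 0.33 over 66 pairs on chromosomes. With both expected pileups near whole multiples, these were 0.089 over 122 and 0.26 over 54 pairs. No interval was computed by distance, so whether scaffolds and chromosomes differ beyond counting error was not tested. Width had a rho of -0.010 over the 523 scaffold pairs, against 0.24 on chromosomes.

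**Figure D3:**
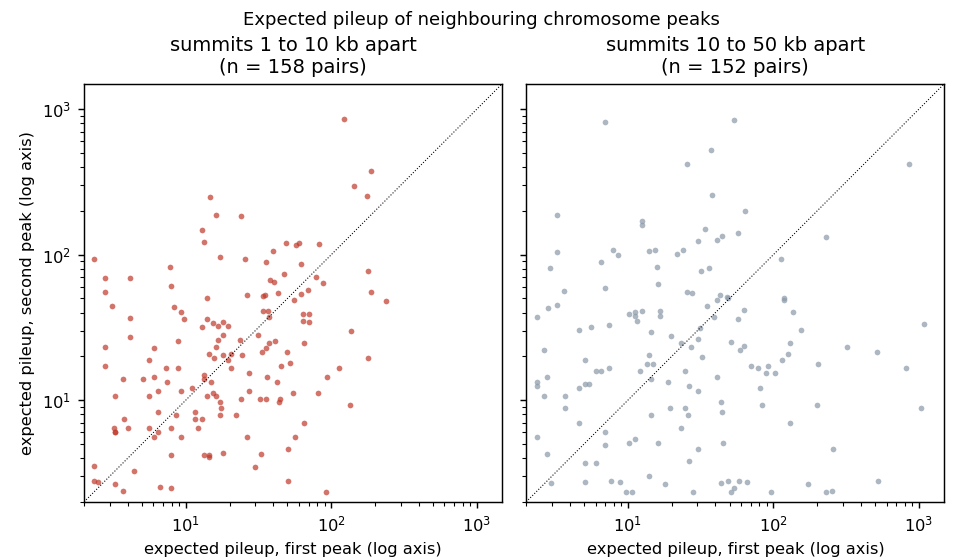
Expected pileup in fragments per base of the second peak of a neighbouring pair (vertical log axis) against that of the first along the chromosome (horizontal log axis), for 158 pairs at 1 to 10 kb (left, red) and 152 pairs at 10 to 50 kb (right, grey). Each point is a pair and the dotted line marks equal values; points gather towards the line on the left, with a rho of 0.36, and not on the right, with a rho of 0.014.

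In most pairs of clustered peaks that could be compared, the intervals of enrichment at both peaks overlapped. For 261 of the 289 clustered peaks the expected pileup could be read as a whole number of input fragments. A depth-scaled ratio of immunoprecipitate to input fragments was then computed, with an exact 95% interval that takes fragments as independent. Among 147 neighbouring pairs of clustered peaks, 123 had such a ratio at both peaks, and the intervals were apart in 3 of them (2.44%). The same count was not made for pairs farther apart. Overlap of intervals is a loose measure of likeness, and such pairs can still differ by more than counting error. Pairs without both ratios included the one most unlike in fold, peaks643 and peaks644, at 3.41 times. The fold differed by a median of 1.21 times within a pair, against 1.31 times between neighbours at 10000 to 50000 bp and 1.296 times beyond. In 104 of the 147 pairs, the higher fold was at the peak with the lower input. Fold is divided by the expected pileup and a site of low input needs a higher fold to be called. This direction was therefore favoured in advance, and it was not counted for pairs farther apart.

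The first of the 3 pairs with intervals apart was peaks353 and peaks354 on NC_025994.1, with summits at 62549632 and 62553202. At peaks353 390 immunoprecipitate fragments stood against 292 input fragments, a ratio of 2.88 (2.47 to 3.37), and at peaks354 55 stood against 20, a ratio of 5.94 (3.50 to 10.5). The second was peaks381 and peaks382 on NC_025995.1, with ratios of 1.84 (1.27 to 2.65) and 3.93 (2.85 to 5.46) at expected pileups of 31.5 and 28.2. The third was peaks641 and peaks642 on NC_025997.1, with ratios of 2.35 (2.01 to 2.75) and 1.75 (1.56 to 1.97). Input was nearly equal in the second pair alone, and in the others it differed by 14.6 and 2.04 times.

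Pairs with a fold of at least 4 at both peaks were rare. Both folds were at least 3 in 29 of the 147 pairs and at least 4 in 2. Taken singly, 7.96% of clustered peaks and 8.26% of the whole list had a fold of at least 4. The single share at a fold of at least 3 was not counted. The upper quartile of fold was 3.29 over clustered peaks and 3.27 over the whole list, so single folds of at least 3 were common in both. Such pairs were not counted farther apart, so whether they are particular to these distances was not tested. The pair with the highest lower fold was peaks1416 and peaks1417 on NC_026004.1, 5029 bp apart, with folds of 5.42 and 4.42 on pileups of 22 and 30 fragments. It was followed by peaks1073 and peaks1074 on NC_026000.1, 3950 bp apart, with folds of 4.06 and 5.17 on 35 and 17 fragments. The next 3 pairs were peaks752 and peaks753 on NC_025997.1 with folds of 4.24 and 3.99, peaks897 and peaks898 on NC_025999.1 with 3.84 and 3.87, and peaks1113 and peaks1114 on NC_026001.1 with 4.12 and 3.78. All 5 pairs were 3705 to 5226 bp apart. Their pileups ran from 17 to 58 fragments, so their ratio intervals are wide, as at peaks1416 (6.79, 2.80 to 18.8).

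A −log10 q of at least 5 was held by both peaks in 65 of the 147 pairs, by 1 peak in 61 and by neither in 21. Taken singly, 64.4% of clustered peaks and 61.5% of the whole list had such a value. Input was over 10 times the genome-wide level at both peaks in 37 pairs and at most 2 times at both in 6. Singly, these inputs were found at 42.9% and 13.1% of clustered peaks, and at 48.0% and 16.8% of the whole list. None of these pair counts was made for pairs farther apart. In 14 pairs the expected pileups differed by over 10 times. The most unlike, peaks661 and peaks662 on NC_025997.1, lay 5460 bp apart with pileups of 11 and 261 fragments and expected pileups of 2.36 and 93.5, and yet had folds of 3.58 and 2.77. Deep and shallow sites were thus found side by side in some chains.

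The clustered peaks with the highest −log10 q were sites of deep coverage in both libraries. The first was peaks796 on NC_025998.1 (10834759 to 10835136), with a pileup of 1899 in the immunoprecipitate and 1860 in the input, a ratio of 2.20 (2.07 to 2.35) and a −log10 q of 198. Its neighbour peaks795, 8132 bp away, had 258 and 264, which is a ratio of 2.11 (1.77 to 2.51). The second was peaks835 on the same chromosome (18936478 to 18936696), at 874 and 807, or a ratio of 2.34 (2.12 to 2.58). Its neighbour peaks834, 4534 bp away, had 454 and 406, or a ratio of 2.41 (2.11 to 2.77). Both peaks of each of these pairs were deep, and their ratio intervals overlap.

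The third by −log10 q was peaks1063 on NC_026000.1 (27930992 to 27931403), at 535 and 384, or a ratio of 3.01 (2.63 to 3.44). It was the highest ratio among the 8 first. The other 5 were peaks650 on NC_025997.1, peaks353 and peaks250 on NC_025994.1, peaks1690 on NC_026008.1 and peaks413 on NC_025995.1, with folds of 2.34, 2.87, 2.44, 2.30 and 2.64. Relative to the genome-wide level, the input of the 8 stood at 57.4 to 366 times. Only 1 of the 8, peaks353, had a neighbour among the 8 clustered peaks of highest fold.

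The clustered peaks with the highest fold lay at low input. The first was peaks643 on NC_025997.1 (1302663 to 1302914), with a fold of 6.30 on a pileup of 25 against 3.13 expected. Its neighbour peaks644, 4104 bp away, had a fold of 1.85 on 83 against 44.5 expected. The second was peaks1276 on NC_026003.1 (4196085 to 4196418), with a fold of 5.74 on 34 fragments against 11 input fragments, a ratio of 6.67 (3.30 to 14.6). Its neighbour peaks1277, 8948 bp away, had a fold of 3.49, 51 immunoprecipitate and 30 input fragments, or a ratio of 3.67 (2.29 to 5.97), and these intervals overlap.

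The third was peaks354, described above, with a fold of 5.46 and the deepest of the 8, and then came peaks1416 at 5.42, peaks1074 at 5.17 and peaks400 at 5.03. The last were peaks473 on NC_025995.1 at 4.77 and peaks172 on NC_025993.1 at 4.73. Pileups of the 8 ran from 15 to 55 fragments and their input stood at 1 to 3.93 times that level. Choosing peaks by the highest fold favours values that are too high.

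The 3 chains of 4 peaks each held clustered peaks. On NC_026006.1, peaks1596, peaks1597, peaks1598 and peaks1599 had summits at 22130798, 22133961, 22137216 and 22143289, and all 4 were clustered peaks. Their folds were 3.48, 2.47, 2.16 and 3.14 on pileups of 17, 92, 89 and 82 fragments. Ratio intervals of the 4 overlap, from 1.72 to 10.4 at peaks1596 and from 1.61 to 2.97 at peaks1598. The gaps between their summits were 3163, 3255 and 6073 bp.

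On NC_026000.1, the clustered peaks1066 (summit 28214496) had a fold of 2.38 on 157 fragments, and 7325 bp on lay the close peaks1067 and peaks1068 with folds of 3.52 and 4.40 on 27 and 36. The clustered peaks1069 followed 1001 bp later with 3.53 on 50. On NC_026004.1, the close peaks1428 and peaks1429 had folds of 4.45 and 2.94, and the clustered peaks1430 and peaks1431 (summits 24510486 and 24515088) had 3.10 and 3.64. The NC_026004.1 chain was shallow throughout, at 21 to 38 fragments.

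**Figure D4:**
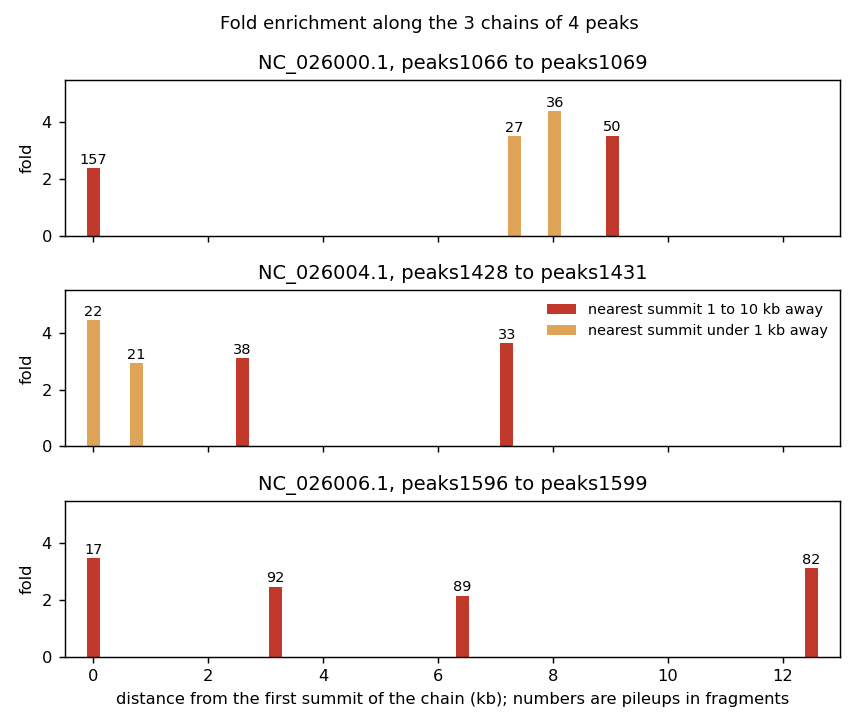
Fold enrichment (bars, vertical axes starting at 0) at each peak of the 3 chains of 4 peaks, by distance from the first summit of the chain in kb; the number above a bar is its immunoprecipitate pileup in fragments, and there are no replicates. Red bars are clustered peaks and orange bars close peaks; the deepest peak of the NC_026000.1 chain, at 157 fragments, has its lowest fold.

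Of the chains of 3 peaks, 13 were made of clustered peaks alone and spanned 4593 to 15885 bp. The longer of their gaps was 1.05 to 6.56 times the shorter, with a median of 3.12. Nearly even spacing was found in 2 of them, named after their values were seen. These were peaks1553, peaks1554 and peaks1555 on NC_026006.1, with gaps of 2241 and 2352 bp, and peaks114, peaks115 and peaks116 on NC_025993.1, with gaps of 3933 and 4239 bp.

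Clustered peaks were found on all 16 chromosomes. NC_025993.1 held the most, 29 of its 180 peaks (16.1%, 11.1 to 22.3%), then NC_025994.1 with 28 of 188 (14.9%, 10.1 to 20.8%). NC_026008.1 held the fewest, 4 of 50 (8.00%, 2.22 to 19.2%), then NC_026005.1 with 5 of 83 (6.02%, 1.98 to 13.5%). As a share, NC_026006.1 was highest, with 25 of 79 (31.6%, 21.6 to 43.1%), a chromosome named after its values were seen. Its interval lies above the 16.9% over all chromosomes and does not overlap that of NC_026005.1, the lowest share of the 16. Each clustered peak needs a near neighbour, so peaks are not independent and these intervals can be too narrow. NC_026006.1 had 79 peaks over a span of 22.9 Mb and NC_026005.1 had 83 over 26.6 Mb. The part of peak density in these shares was not tested. The 25 clustered peaks of NC_026006.1 formed 10 chains, and their median fold of 2.75 was near that of all clustered peaks. Along the chromosomes, 112 clustered peaks (38.8%, 33.1 to 44.6%) lay in the outer 20% at either end of the span of summits, as did 511 isolated peaks (38.8%, 36.1 to 41.5%).

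**Figure D5:**
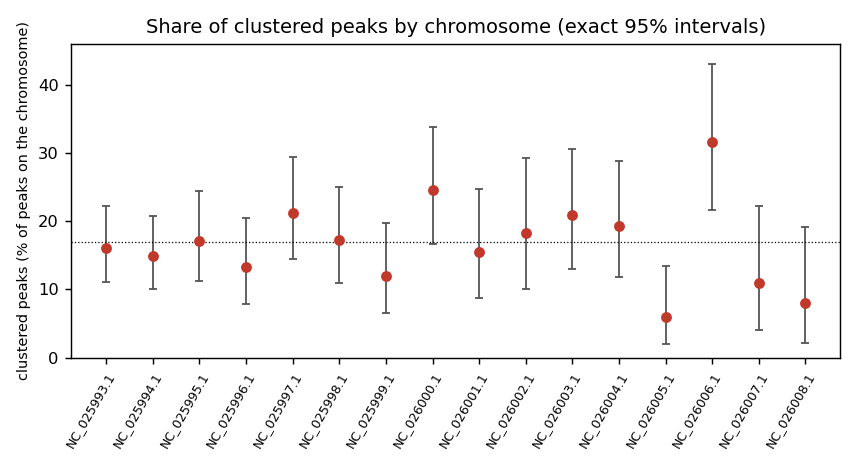
Clustered peaks as a percentage of all peaks on each of the 16 chromosomes (points, vertical axis from 0), with exact 95% binomial intervals as bars. The dotted line is the share over all chromosomes, 16.9%; NC_026006.1 is highest at 31.6% and NC_026005.1 lowest at 6.02%.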

How the data were processed

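Alignment and calling tools listed in the submitters' processing notes are BWA 0.7.8 and MACS2 2.1.1, beside FastQC, HOMER and ChIPseeker; neither their parameters nor the genome build is given in the sources used here. In the deposited data, 1 narrowPeak list holds 7919 peaks, called from 1 immunoprecipitate and 1 input library. Its deposited values are a fold enrichment ratio, a −log10 p-value and −log10 q-value at the summit, and an integer score, which in all 7919 peaks was the −log10 q multiplied by 10 without its decimals. Positions are given 1-based on the RefSeq sequences named.

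From these, the whole-number pileup and expected pileup behind each peak were recovered as the values that give both the fold, with a pseudocount of 1, and the Poisson p. All 7919 peaks had one, with a largest residual of 0.029 fragments. Where the expected pileup was a multiple of 0.463 (tolerance 0.02, widened for rounding), it was read as input fragments (7024 peaks). That step is 1 input fragment if the input was 2.16 times as deep; if it counts read ends, or duplicates were kept, the ratio intervals do not hold. Library depth in reads is unknown.

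Medians have distribution-free rank intervals and shares exact Clopper-Pearson intervals, at 95%. The interval given for a rho is from the Fisher transformation and takes pairs as independent. Python 3.11.15, scipy 1.17.1 and pandas 2.3.3 were used; recovery and the neighbour rule were tested on simulated data. Members, limits and comparisons were chosen with earlier results of these data known. Named peaks are the 8 highest by −log10 q and by fold, the 3 chains with the most peaks, the 5 pairs with the highest lower fold, and the peaks nearest each limit. Chromosomes named are the 2 with the most and the 2 with the fewest clustered peaks. Pileup ratios within 0.001 of 2 counted as within 2 times. Alternative distance limits, a −log10 q of at least 5, merging and distances between edges were tried. Gene positions, gene lists and CArG boxes were not analysed, since the gene table at hand is of another assembly (EG11).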

Additional observations from a re-analysis of the deposited data

How the results depend on the processing

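Each of 12 results was recomputed under 7 alternatives, and the likeness of neighbours under 2 more chosen after seeing the data, 88 values in all. Of these, 79 stayed within the interval of the reported value (counts within 1.5 times) and 9 did not. No rho changed its sign. The other results could not count as reversed, since they cannot be negative or had a reported interval that spans 0. With an upper limit of 5000 bp, 172 clustered peaks in 86 chains were left, and 8.14% of them were at low input; the limit leaves out the farthest neighbours by construction. With a −log10 q of at least 5, 134 peaks in 65 chains were left, with a median −log10 q of 13.2, width of 316 bp and expected pileup (in multiples of the genome-wide level) of 15.4, and 2.99% at low input; that filter removes low input and low −log10 q by its construction. The rho of expected pileup between neighbours ran from 0.27 (upper limit 20000 bp) to 0.44 (lower limit 0 bp), and that of fold from 0.16 (scaffolds) to 0.36. No paired analysis was possible because there was 1 library of each kind, so no replicate could be left out either. The alternatives for CArG boxes and gene starts were not run. Depth limits single ratios most at low input, where intervals span several-fold.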

Other observations

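Clustered peaks were dense on 1 chromosome in several places, found after their values were seen. Of the 4 stretches of 1 Mb that held 5 or more of them, 3 were on NC_026006.1. The first held 6 clustered peaks in 2 chains within 162653 bp, from 20246278 to 20408931, with folds of 3.43, 2.64 and 4.13 at peaks1581 to peaks1583 and 1.59, 3.87 and 3.71 at peaks1584 to peaks1586. Another 6 lay between 21692340 and 22143289, and 5 between 11716711 and 12205316. The stretch on another chromosome was on NC_025994.1, with 5 between 61996666 and 62559299.

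Among the 158 neighbouring pairs at 1000 to 10000 bp, 1 spacing occurred more than once to the base. So many spacings can share a value without any link between the sites. How often this would happen was not worked out, so nothing is read from it. Summits were 6097 bp apart both at peaks354 and peaks355 on NC_025994.1 and at peaks680 and peaks681 on NC_025997.1. Their folds were 5.46 and 3.58 in the first pair and 3.77 and 3.26 in the second, on pileups of 55, 44, 15 and 37 fragments.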
